A study of Mus musculus with 2 samples.

Results

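The replication-dependent histone genes are the protein-coding genes of the mouse histone clusters, with symbols that begin with Hist1h, Hist2h, Hist3h or Hist4h. By that symbol rule 67 of the 55536 genes in annotation release M21 were members. They comprised 6 genes for the linker histone H1, 18 for H2A, 18 for H2B, 12 for H3 and 13 for H4. Of these, 54 lie in the Hist1 cluster on chromosome 13, 10 in the Hist2 cluster on chromosome 3, 2 in the Hist3 cluster on chromosome 11 and 1 (Hist4h4) on chromosome 6.

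RNA with polyA tails was sequenced from forebrains of newborn mice (age 0 days) of strain B6NCrl, with no treatment or mutation in the labels. There was 1 group of 2 libraries, pup 1 and pup 3, each from the forebrain of a single pup and 10 ng of total RNA. The labels give both pups 1 donor identifier and no sex, and their relation is not given. The first strand was primed with oligo-dT, and Nextera tagmentation cut the product into fragments. With 1 group and 2 pups, no test was possible. Every difference between the pups below is a spread between 2 animals with 1 library each, so animal and library cannot be told apart.

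Cluster histone genes supply the histones that package newly copied DNA, and their messages are made mainly in S phase. Their usual message has no polyA tail. It ends just after a short stem-loop, which the stem-loop binding protein holds and which U7 small nuclear RNA and its partners help to cut. Forms with polyA tails, made from signals downstream of the stem-loop, are known from differentiated cells. Oligo-dT primes on polyA tails and on stretches rich in A inside RNA, so the values below are those of messages with such a stretch and not of the whole histone message pool. A lower level in whole tissue can also stand for fewer cells or for less RNA per cell, which cannot be told apart here.

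The stem-loop is shown first because the results turn on where the annotated messages end relative to it. A perfect match to the histone stem-loop consensus of 16 bases was found in a transcript of 44 of the 67 members, against 9 of 21834 other protein-coding genes (0.0412%). On the opposite strand it was found in 0 of 67 members and in 3 of 21834 other genes. The matches took 6 forms. Of these, 4 are printed below, 2 from H4 genes and 2 from the other classes, with up to 5 bases on either side, from the GENCODE M21 transcript sequences, and the capitals mark the match.
Hist1h2ap (chr13:21833029-21833044, minus strand): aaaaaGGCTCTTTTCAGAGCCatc
Hist1h4d (chr13:23581950-23581965, plus strand): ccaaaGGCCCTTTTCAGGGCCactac
Hist1h3e (chr13:23561903-23561918, minus strand): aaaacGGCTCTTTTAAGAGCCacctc
Hist1h4b (chr13:23757366-23757381, plus strand): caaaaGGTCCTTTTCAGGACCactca

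The form in Hist1h2ap was that of 26 members: 3 H1, 10 H2A, 8 H2B and 5 H3 genes. The form in Hist1h4d was that of 7 members, all H4 genes, and the form in Hist1h4b that of 2, also H4. The form in Hist1h3e was that of 6 members, with 1 H1, 2 H2B and 3 H3 genes. None of the 11 H4 matches had a stem found in another class. The match began a median of 31 bases after the stop codon (range 21 to 58, 44 genes). Allowing 1 mismatch raised the number of members with a match from 44 to 46.

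The second sequence of interest is a run of A just before the stem-loop of Hist1h2ap. This member had the highest level of all, and its near-copy Hist1h2ao holds the same run. In the 20 bases that end immediately before the stem-loop, 16 are A, here in capitals.
Hist1h2ap (chr13:21833045-21833064, minus strand): ccgAAAAgAAAAAAAAAAAA
Hist1h2ao (chr13:21810878-21810897, plus strand): ccgAAAAgAAAAAAAAAAAA

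Runs with 16 or more A in 20 bases occurred in 6 of the 75 transcripts of members (8%), each of another gene. Among 58797 protein-coding transcripts the share was 12.4%. These shares were not matched for length, and most members are short (median 528 bases). The other 4 members were Hist1h1d, Hist1h2ac, Hist2h4 and Hist4h4, and in them the run lay past the stem-loop. In these libraries Hist1h1d had a mean of 0.12 TPM, Hist1h2ac 0.365, Hist2h4 3.48 and Hist4h4 0.355. Whether the run in Hist1h2ap was primed was not tested.

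Copies within a class are alike, and this bears on every level below. A median of 49.5% of a member's 50-base windows also occurred in a transcript of another gene, and in 32 members it was over 50%. By class the median was 1.13% in H1, 73.0% in H2A, 46.9% in H2B, 62.0% in H3 and 39.5% in H4. The authors' tables split reads that fit several genes by estimation, and in 18 of the 32 members detected in both pups the deposited interval of the TPM spanned over 2-fold in at least 1 pup. Hist1h1a, Hist1h1b, Hist1h1t and Hist2h2be shared no window with another gene. Hist1h2ap shared 93.1% of its windows with Hist1h2ao, yet its deposited interval, of the posterior TPM, was narrow, at 505 to 538 in pup 1 and 975 to 1015 in pup 3. The upper bound for Hist1h2ao was 4.28 and 5.27 TPM. The 2 transcripts are annotated to different ends. The stop codon ends at base 425 in Hist1h2ap and at base 395 in Hist1h2ao, and they end 3 and 31 bases past the stem-loop. The narrow interval depends on these ends and by itself does not show that the 2 genes can be told apart. Their summed counts were 5415 in pup 1 and 11552 in pup 3, and together they held 65.6% of the summed mean TPM.

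The libraries held 40964891 and 41230878 expected counts (estimated reads per gene) in pup 1 and pup 3. The 67 members took 13724 of these in pup 1, or 0.0335% (95% Wilson interval 0.0329 to 0.0341%), and 22471 in pup 3, or 0.0545% (0.0538 to 0.0552%). The intervals cover counting error only, since the reads carry no molecular identifiers. Forebrain markers were present, with 10 of 10 detected (Neurod6, a transcription factor of cortical excitatory neurons, at 197 and 316 TPM). Of 8 midbrain and hindbrain markers, 0 were detected, and 4 were at 0 in both pups. The highest of the 8, Tph2, was at 0.86 and 0.62 TPM from 57 and 46 counts. Markers of erythroid cells, which any blood in the tissue brings, summed to 2179 and 3084 TPM.

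Members were detected, at a TPM (transcript abundance corrected for length and depth) of 1 or more in both pups, in 32 of 67 cases, against 59.5% of 22028 protein-coding genes. Another 5 were detected in 1 pup and 30 in neither. The median over all 67 members, those at 0 included, was 0.875 ± 0.247 TPM (SD, n = 2 pups). Their summed level was 908 TPM in pup 1 and 1482 in pup 3. The pool was uneven: Hist1h2ap alone held 59.6% of it in pup 1 and 69.1% in pup 3, and the 3 highest members held 78.2% of the summed mean TPM. The next member, Hist3h2ba, was 7.53-fold lower on the mean.

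**Figure D1:**
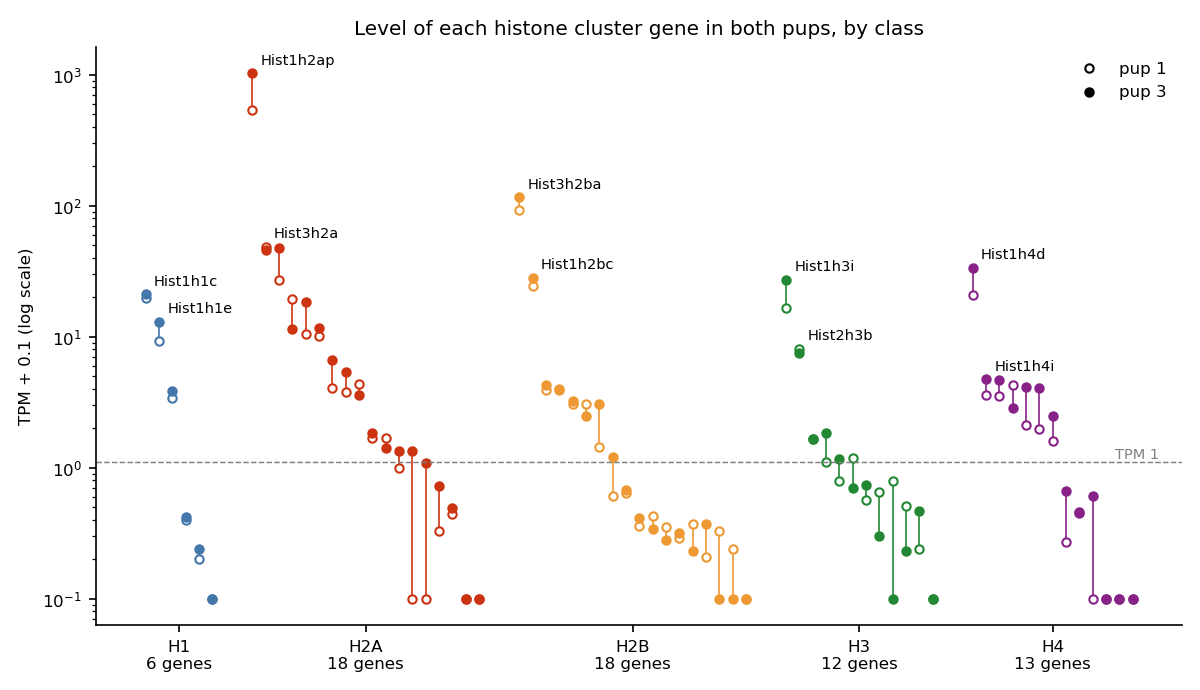
Level of each of the 67 histone cluster genes, in TPM + 0.1 on a log axis, ordered within its class, with pup 1 as open and pup 3 as filled points joined by a line. Hist1h2ap stands at 542 and 1024 TPM above all others, and 34 genes have a mean under TPM 1.

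The H2A genes, whose protein forms a dimer with H2B in the nucleosome, held most of the pool. Their sum was 673 TPM in pup 1 and 1182 in pup 3, with 11 of 18 detected in both pups and a median of 2.77 TPM over the class. Hist1h2ap (ENSMUSG00000094777.2, chr13:21833026-21833507, minus strand, a single exon) was at 542 TPM (5415 counts) in pup 1 and 1024 TPM (11538 counts) in pup 3. These values lie above the other 66 members in each pup. Without it the class summed to 132 TPM in pup 1 and 158 in pup 3.

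Hist3h2a (chr11:58954685-58956830, plus strand), 1 of the 2 Hist3 genes, was at 48.5 TPM in pup 1 and 46.1 in pup 3, a close pair. It lies wholly within Trim17, a gene on the same strand listed at 0.54 and 0.52 TPM, which shares 31.5% of its windows. Hist2h2aa1 and Hist2h2aa2 are near-identical neighbours on chromosome 3. Hist2h2aa2 was at 27.0 TPM in pup 1 and 47.5 in pup 3, and Hist2h2aa1 at 19.2 and 11.3. The pair moved in opposite directions between the pups, while all 479 windows of Hist2h2aa2 also occur in Hist2h2aa1. Their summed counts, which do not depend on the split between those 2, were 547 in pup 1 and 762 in pup 3. Gm20634, a processed transcript on the same strand as Hist2h2aa1, also holds 89.4% of the windows of Hist2h2aa1. Hist1h2ae followed at 10.3 and 18.3 TPM. The testis form Hist1h2aa was at 0 counts in both pups.

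The H2B genes summed to 134 TPM in pup 1 and 164 in pup 3, with 7 of 18 detected in both pups and a class median of 0.422 TPM. Hist3h2ba (chr11:58948920-58949533, plus strand), the other Hist3 gene, led the class. It was at 91.8 TPM (1234 counts) in pup 1 and 116 TPM (1762 counts) in pup 3, or 104 ± 17.3 (SD, n = 2 pups). Together the 2 Hist3 genes held 15.4% of the pool in pup 1 and 11.0% in pup 3, from 2 of 67 members.

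Hist1h2bc was second in the class at 24.1 and 28.1 TPM. Hist1h2bq and Hist1h2br are near-copies, with 97.3% of the windows of Hist1h2bq in Hist1h2br, and had 3.79 and 4.15 TPM and 3.83 and 3.88 TPM respectively. The deposited interval of Hist1h2bq ran from 0.0942 to 7.30 TPM in pup 1, so the level of either copy is not fixed by these reads. Their sum was 7.62 TPM in pup 1 and 8.03 in pup 3. The testis form Hist1h2ba was at 0 counts in both pups.

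The H1 genes encode linker histones, which bind DNA where it enters and leaves the nucleosome. They summed to 32.7 TPM in pup 1 and 38.1 in pup 3, and 3 of 6 were detected in both pups. Hist1h1c (chr13:23738808-23740367, plus strand) was at 19.8 and 20.9 TPM, or 20.4 ± 0.799 (SD, n = 2 pups). Hist1h1e was at 9.18 and 12.9 TPM and Hist1h1b at 3.33 and 3.75. The deposited intervals of these 3 did not overlap each other in either pup. Hist1h1a was at 0.3 and 0.32 TPM. The testis form Hist1h1t was at 0 counts in both pups, which allows up to 0.141 TPM in pup 1 and 0.125 in pup 3 (3 counts per library). Hist1h1e shares 496 bases of its span with Hist1h2be on the same strand, which was at 0.26 and 0.31 TPM.

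The H3 genes, for the histone whose tail carries many of the known chromatin marks, summed to 31.1 TPM in pup 1 and 40.9 in pup 3. Of 12, 4 were detected in both pups. Hist1h3i (chr13:21782960-21783370, minus strand) was at 16.5 TPM in pup 1 and 27.2 in pup 3, and Hist2h3b at 7.99 and 7.45. The next were Hist1h3e at 1.57 in both pups and Hist1h3a at 1 and 1.74 TPM. Hist1h3i shares 87.6% of its windows with other genes, and its near-copy Hist1h3h was at 1.08 and 0.6 TPM. Hist2h3c1 was at 0 counts in both pups, and all of its windows also occur in Gm20634, a processed transcript on the same strand.

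The H4 genes, for the partner of H3 in the nucleosome core, summed to 37.6 TPM in pup 1 and 57.2 in pup 3. Of 13, 7 were detected in both pups, and the class median was 1.95 TPM. Hist1h4d (chr13:23581598-23582735, plus strand) was at 20.6 TPM (560 counts) in pup 1 and 33.5 TPM (1025 counts) in pup 3. It shares 10.2% of its windows, so little of this level rests on the split of reads. The next 3 were Hist1h4i at 3.5 and 4.62 TPM, Hist1h4h at 3.41 and 4.54, and Hist2h4 at 4.18 and 2.78. Their order differed between the pups.

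Hist4h4, the only member outside the 3 clusters, was at 0.35 and 0.36 TPM from 25 and 29 counts over a transcript of 2863 bases. Hist1h4j, Hist1h4k and Hist1h4m were at 0 counts in both pups. In all, 7 members were at 0 counts in both pups, among them the testis forms Hist1h1t, Hist1h2aa and Hist1h2ba. For these 7, 3 counts would equal 0.0592 to 0.539 TPM, a floor that ignores reads split between copies. The deposited interval of the TPM ended below a gene's own floor in Hist1h1t and Hist1h2aa, and above it in the others. That of Hist1h4m, with 89.8% of its windows in Hist1h4n, reached 1.23 TPM in pup 1 and 2.61 in pup 3. Its 0 is therefore an estimated split and not a measured absence.

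The oligo-dT priming made the ends of the annotated transcripts the next question. The 67 members have 75 transcripts in M21. A transcript was said to run past the stem-loop when it ended over 100 bases after it, and to end near it otherwise. By that rule 24 transcripts of 22 genes ran past (median 805 bases past, range 151 to 4884), 22 ended near (median 32 bases, range 3 to 74) and 29 held no match. Of these 29, 15 were annotated only to the stop codon, so no stem-loop could be found in them.

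The polyA signal AATAAA stood in the last 50 bases of 10 of the 24 transcripts that ran past, and of 0 of the 22 that ended near. Among all 58797 protein-coding transcripts the share was 40.5%. The 10 included those of Hist3h2ba, Hist3h2a, Hist1h1c, Hist1h2ae and Hist2h4. The rest were those of Hist1h1t, Hist1h4j and Hist2h3c1, all at 0 TPM, and of Hist4h4 at 0.35 and 0.36. Hist1h4d-201 (20.6 and 33.5 TPM) and Hist1h1e-201 (9.18 and 12.9) ran past without the signal there. Of the 29 transcripts with no match, 6 held it. A match is a description of these letters, not a mapped cleavage site, and a transcript's level here is an estimate from reads over its whole length.

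**Figure D2:**
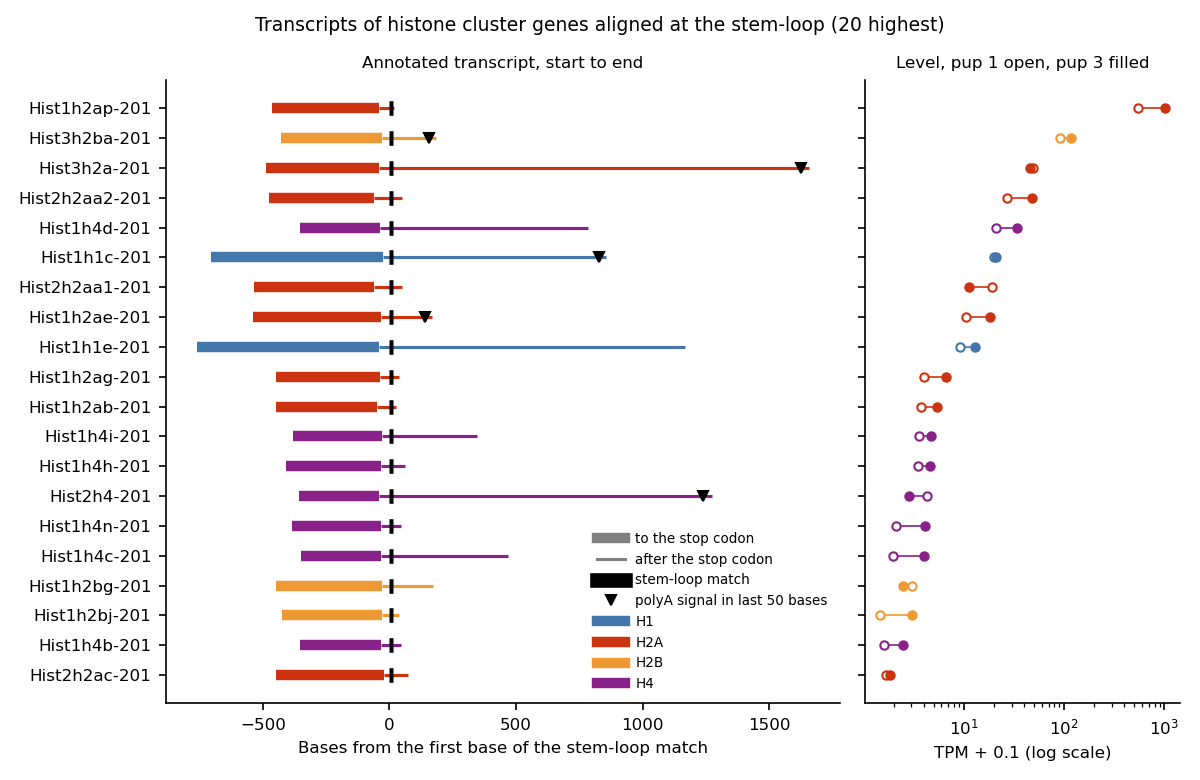
Left, the 20 transcripts with a stem-loop match and the highest mean TPM, drawn to scale in bases and aligned at the match (black bar), with triangles at polyA signals in the last 50 bases. Right, their TPM + 0.1 in both pups on a log axis. Hist1h2ap-201 ends 3 bases past the stem-loop, and Hist3h2ba-201 169 bases past it.

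Transcripts that ended near the stem-loop held 67.1% of the members' TPM in pup 1 and 75.3% in pup 3, and nearly all of this was Hist1h2ap. With Hist1h2ap left out, they held 18.4% and 20.0%. Those that ran past then held 59.1% and 58.2%, and those with no match 22.5% and 21.8%. The shares are sensitive to the definition: with over 200 bases in place of 100, Hist3h2ba-201, Hist1h2ae-201, Hist1h2bg-201 and Hist1h1t-201 no longer counted (20 transcripts in place of 24), and the share that ran past dropped from 23.8% to 12.3% in pup 1 and from 18.0% to 8.74% in pup 3 (Hist1h2ap included).

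These shares varied by class. In H1, 89.1 ± 0.290% (SD, n = 2 pups) of the class's TPM was on transcripts that ran past, in H4 80.1 ± 1.51% and in H2B 71.8 ± 1.02%. In H2A it was 7.13 ± 2.34%, and 90.8 ± 2.98% was on transcripts that ended near. Of the H2B TPM on transcripts that ran past, Hist3h2ba-201 held 91.8 of 94.9 in pup 1 and 116 of 119 in pup 3. It ends 169 bases past the stem-loop and no longer counted under the higher cutoff given above, so the H2B share depends on the cutoff. Of the H2A TPM on transcripts that ended near, Hist1h2ap-201 held 542 of 597 in pup 1 and 1024 of 1098 in pup 3. In H3, 85.0 ± 1.97% was on transcripts with no match, since Hist1h3i is annotated only to its stop codon and Hist2h3b only 37 bases beyond it. By gene rather than by TPM the 3 kinds were alike: 11 of 22 genes with a transcript that ran past, 11 of 22 that ended near and 10 of 23 with no match were detected in both pups.

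Many H2A and H2B genes stand back to back and share the bases between their starts. There were 12 such pairs within 500 bases, 175 to 305 bases apart. The H2A gene had the higher mean TPM in 8, the H2B gene in 3, and Hist1h2aa and Hist1h2ba were both at 0. Among the 8, Hist1h2ad and Hist1h2bf changed order between the pups, at 0.23 and 0.25 TPM in pup 1 and 0.62 and 0.18 in pup 3. Among the 3, the order of Hist1h2bq and Hist1h2ao depends on the split of reads with their near-copies. In 4 pairs both genes had a mean TPM of at least 1. Hist1h2ap and Hist1h2br lie 235 bases apart, with means of 783 and 3.86 TPM. Both levels depend on the split of reads, with Hist1h2ao and with Hist1h2bq. Hist1h2ac and Hist1h2bc went the other way, at 0.365 and 26.1 TPM. Hist1h2ae (14.3 TPM) and Hist1h2bg (2.68 TPM) were 175 bases apart.

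**Figure D3:**
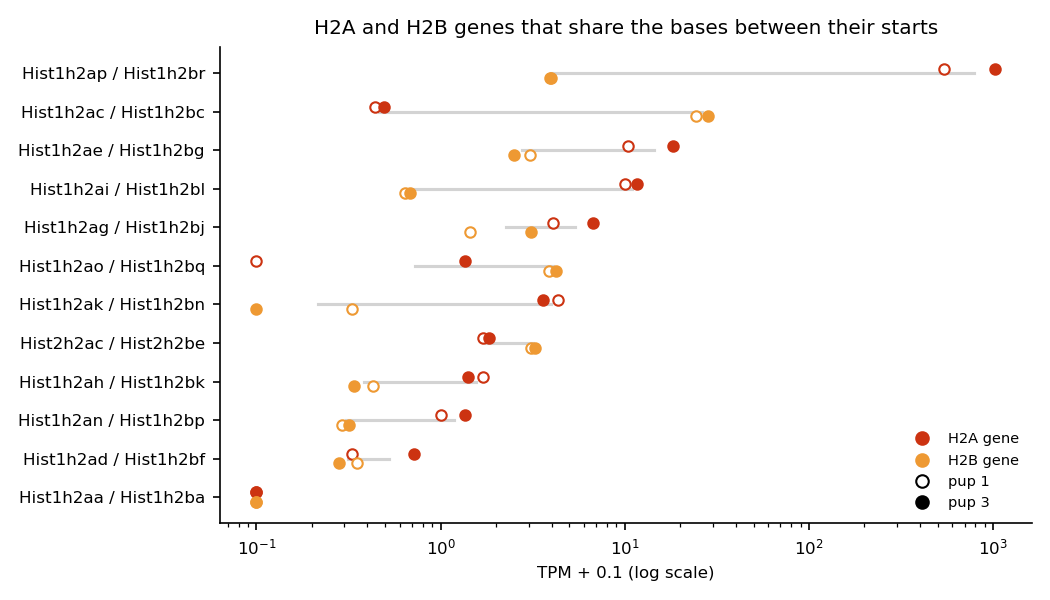
TPM + 0.1, on a log axis, of the H2A gene (red) and the H2B gene (orange) of 12 back-to-back pairs, with pup 1 as open and pup 3 as filled points and a grey line between the means. The widest gap is that of Hist1h2ap and Hist1h2br, and in 3 pairs the H2B gene has the higher mean.

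Of the 235 bases between Hist1h2ap and Hist1h2br, 218 are shown because the 2 genes they face differ so much in estimated level. These are levels of captured messages, and what this stretch drives was not tested. The 218 bases before the annotated start of Hist1h2ap are taken from RefSeq's promoter table (build GRCm38.p6), and the capitals mark the letters CCAAT on either strand.
Hist1h2ap (chr13:21833508-21833725, minus strand): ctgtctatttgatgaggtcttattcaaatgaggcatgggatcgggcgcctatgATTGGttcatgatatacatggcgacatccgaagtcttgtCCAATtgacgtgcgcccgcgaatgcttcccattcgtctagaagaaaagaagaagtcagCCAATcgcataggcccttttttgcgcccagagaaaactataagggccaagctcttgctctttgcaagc

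The letters CCAAT stood at -126 and -68 from that start on the strand of Hist1h2ap, and at -165 on the strand of Hist1h2br. Neither the exact letters TATAAA nor those of the octamer ATTTGCAT occurred in the printed bases on either strand. Variants of these letters were not sought. Of the 67 members, 62 were matched to a RefSeq promoter of 250 bases, and 51 of these (82.3%) held CCAAT on either strand, against 37.5% of 27025 genes. It was in all 6 H1, 18 H2A and 16 H2B promoters matched, in 8 of 10 H3 and in 3 of 12 H4 promoters. TATAAA was in 29 of 62 (46.8%, against 14.3% of all genes). The octamer was in 14 of 62 (22.6%, against 1.81%), in 7 H2A and 7 H2B promoters and in 0 of the other 28. Divergent pairs share bases, so these promoters are not independent.

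Many histone genes outside the clusters are expressed through the cell cycle, and their messages are mostly polyadenylated. All 11 of a list of genes outside the clusters were detected, with a median of 148 ± 9.60 TPM (SD, n = 2 pups). The H3.3 genes H3f3a (2036 and 2295 TPM) and H3f3b (2001 and 2161 TPM) led, followed by H2afz (602 and 713), which encodes H2A.Z, and H1f0 (185 and 197), a linker histone of resting cells. Cenpa, the centromere H3, was lowest at 35.0 and 36.2 TPM.

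Set against these, the cluster genes were a small part of the H1 and H3 messages captured and a large part of the H2A messages. For H3, the 12 cluster genes summed to 36.0 ± 6.92 TPM and the 3 other genes to 4283 ± 297. The other genes were 131-fold higher in pup 1 and 110-fold in pup 3. For H1 the sums were 35.4 ± 3.80 and 246 ± 8.78 TPM, a ratio of 7.32 and 6.62. For H2A they were 927 ± 360 and 1344 ± 106 TPM, a ratio of 1.89 in pup 1 and 1.20 in pup 3 (SD, n = 2 pups throughout). The H2A ratio rests on Hist1h2ap. No H2B or H4 gene was on the list of genes outside the clusters.

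**Figure D4:**
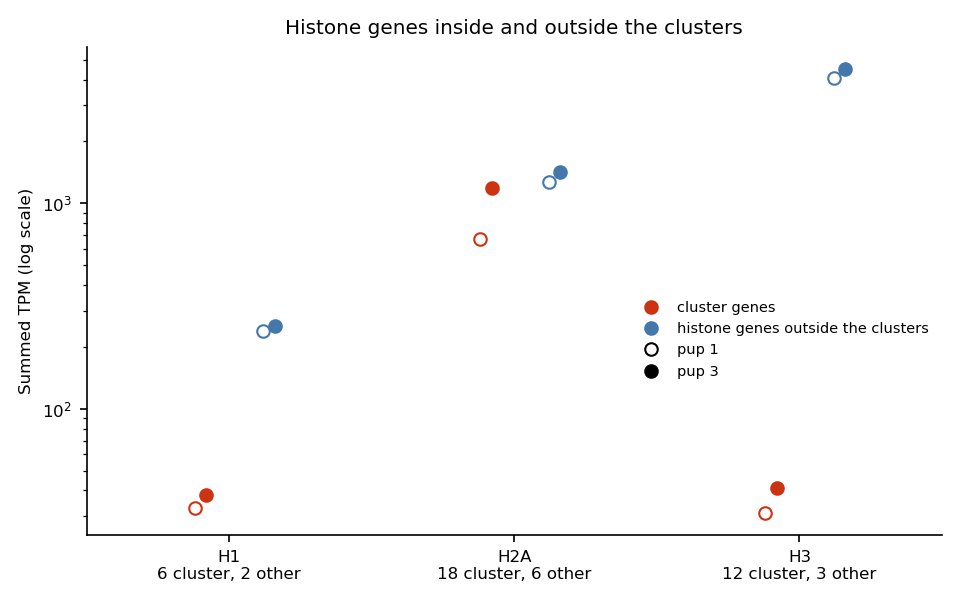
Summed TPM, on a log axis, of the cluster genes (red) and of the histone genes outside the clusters (blue) for H1, H2A and H3, with pup 1 as open and pup 3 as filled points. The H3 sums are furthest apart, at 31.1 and 40.9 against 4072 and 4493 TPM.

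Genes that make, bind and degrade histone messages were nearly all present. Of 20 listed, 19 were found by symbol and 18 of these were detected, with a median of 23.2 TPM. Slbp, which encodes the stem-loop binding protein, had the highest mean, at 78.0 and 68.7 TPM. Lsm1, of the decay machinery, was at 63.2 and 72.0, above Slbp in pup 3, and the cleavage factors Cpsf3 and Cpsf1 at 65.8 and 54.3 and at 55.7 and 47.0. Zfp473, which encodes the U7-associated zinc finger protein, was lowest at 0.34 and 0.59. All 18 histone chaperones listed were detected (median 44.9 TPM), from Npm1 at 331 and 350 TPM to Chaf1a, a subunit of the factor that loads H3 and H4 at replication forks, at 3.81 and 3.57.

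Genes of dividing cells were expressed in both forebrains. All 16 genes of a list of replication and cell cycle genes were detected, with a median of 16.02 ± 0.569 TPM (SD, n = 2 pups), led by Pcna at 102 and 108, Mcm7 at 53.6 and 55.6, Cdk1 at 39.4 and 44.0 and Rrm2 at 41.6 and 40.3 TPM. Mki67 was lowest at 3.29 and 1.89. Their median log2 ratio of pup 3 over pup 1 was -0.04, with 6 of 16 higher in pup 3. Over all 15463 genes whose mean TPM was at least 1, the median was -0.24 and 20.2% were higher.

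Between the pups the members leaned the opposite way from most genes. Over the 33 members whose mean TPM was at least 1, the median log2 ratio of TPM + 1 in pup 3 over pup 1 was 0.24, against -0.24 over 15463 genes. Of these 33, 25 were higher in pup 3, against 20.2% of all genes. These values depend on the measure and its scaling, and not to the same extent for all genes. The median over all genes was -0.24 in TPM and 0.04 with TMM-scaled counts. With TMM-scaled counts the members' median was 0.37 and 30 of 33 were higher. Relative to the median of all genes, the members' median was 0.48 and 31 of 33 lay above it.

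Gene length moved with this difference, and most members are short (median 528 bases). Among genes of 500 to 1000 bases the median log2 ratio was 0.02, and among those of 3000 to 4000 bases -0.35. Of the 26 members under 1000 bases, 20 were higher in pup 3, against 53.7% of 2402 genes of that length. Their median was 0.32, against 0.04 for those genes. Of the 7 members of 1000 bases or more, 5 were higher, with a median of 0.08. Among all genes the share higher in pup 3 was 36.0% at 1000 to 1500 bases, with a median of -0.08. It was 18.3% at 1500 to 2000 bases (median -0.18) and 10.9% at 2000 to 3000 bases (median -0.26). The part that length, or the higher erythroid genes in pup 3 (5 of 5 with a mean TPM of at least 1, median log2 ratio 0.45), has in the members' difference was not tested.

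**Figure D5:**
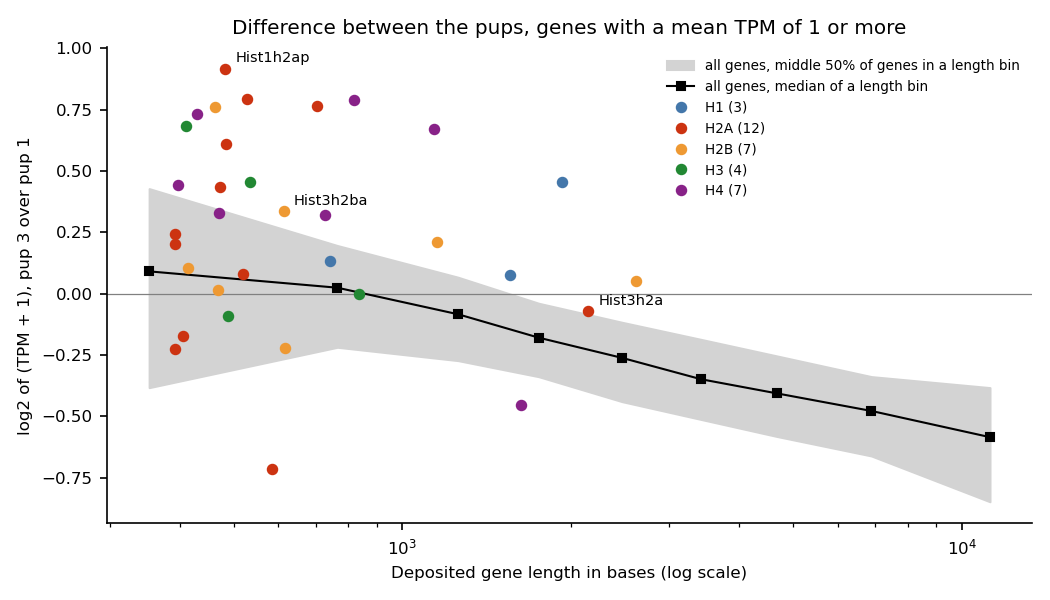
Log2 of TPM + 1, pup 3 over pup 1, against deposited gene length on a log axis for the 33 members whose mean TPM was at least 1, coloured by class. Black squares are medians of all genes in bins of length and the grey band holds the middle 50% of them. The medians go from 0.09 under 500 bases to -0.59 over 10000 bases, and Hist1h2ap stands at 0.92.

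By class the median log2 ratio was 0.44 in H4 (6 of 7 higher in pup 3), 0.23 in H3 (2 of 4), 0.22 in H2A (8 of 12), 0.13 in H1 (3 of 3) and 0.10 in H2B (6 of 7). The largest differences among the 15 members that reached a TPM of 5 in either pup were those of Hist1h2ap (0.92), Hist2h2aa2 (0.79), Hist1h2ae (0.77) and Hist1h3i (0.68). At the other end stood Hist2h2aa1 (-0.72), Hist2h3b (-0.09), Hist3h2a (-0.07) and Hist1h1c (0.08). None of the 15 was over 2-fold higher in pup 3, where 0.331% of 11477 genes were, and none over 2-fold lower, where 2.17% were.

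Relative to the median of all 11477 genes (-0.23), 2 of the 15 were over 2-fold higher in pup 3, against 0.505% of genes, and 0 over 2-fold lower, against 0.88%. These were Hist1h2ap (2.22-fold) and Hist2h2aa2 (2.03-fold), and the second depends on the split of reads with Hist2h2aa1. As a share of all counts, Hist1h2ap was 2.12-fold higher in pup 3 (95% interval 2.05 to 2.19, counting error only). The ratio of the members' sums was 1.63, and 1.25 without Hist1h2ap.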

How the data were processed

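Forebrain RNA of 2 pups was analysed from the gene and transcript tables for mouse genome mm10 with annotation release M21, with release M4 as an alternative. The deposited tables give expected counts, in which the authors split reads that fit several genes, TPM scaled by the authors to the same total over all listed features, and deposited FPKM. The posterior SD of the counts and the interval bounds of TPM, a signal scale here, are also as deposited, with no level given for that interval. The columns are named as RSEM names them, and no aligner, quantifier or version is given. Strandedness is not given either.

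The members, lists and named genes were chosen with earlier results of these data known. Named were the 4 highest members of each class, the Hist3h and Hist4h genes, the 4 largest log2 ratios in each direction at a TPM of 5 or more, members at 0 counts (up to 4 a class), and the 4 highest and the lowest gene of each other list. Others named (copies, overlapping genes, pairs, members with a run of A) were chosen after their values were seen. The list of message factors holds a misspelt symbol with no match, and Tut4 and Tut7 were found through RefSeq synonyms.

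Symbols, coordinates and transcript sequences came from GENCODE M21. The stem-loop search was planned on a genome but ran on those transcripts, and the promoter motif search on RefSeq's promoter table. Fold calls and the stem-loop search were tested on simulated data. Expected counts were rounded for TMM (edgeR 4.0.16) and DESeq2 1.42.0 size factors, used as alternatives only. Other steps used Python 3.11.15, pandas 2.3.3 and R 4.3.3.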

Additional observations from a re-analysis of the deposited data

Results flagged for a closer look

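The annotation places 17 short miRNA entries on the opposite strand inside H2A genes, and 2 of them had more than 3 expected counts in both pups. Gm44346, inside Hist1h2an, had a mean of 263 expected counts (232 in pup 1 and 295 in pup 3) and 211 and 239 TPM. Hist1h2an itself was at 0.9 and 1.25 TPM from 6.89 and 10.8 counts, and a shorter entry gets a higher TPM from the same counts. Gm44313, inside Hist3h2a, had a mean of 29.7 (22.1 and 37.4). These entries, 141 and 138 bases long, are no members and enter the comparisons above only among all genes, and 11 of the 17 were at 0 in both pups. Strandedness is not given, so the strand that the reads of these entries came from cannot be told.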

How the results depend on the processing

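Of 41 alternatives, 25 kept the result within its limits, 16 moved it and 0 turned its direction. Only the median log2 ratio could turn direction, since counts, levels and percentages have no sign to change. The median level of 0.875 TPM was 0.6 in FPKM, 1.44 in posterior mean TPM, 1.28 in release M4 (64 members) and 3.00 over the 47 members with 10 or more counts, and leaving out 1 pup gave 0.9 to 1.25. The number of members detected was 25 to 38 of 67, and 33 to 36 with 1 pup left out. The 0 members over 2-fold apart became 1 at a TPM minimum of 1, 1 in FPKM, 1 in M4, 2 with TMM scaling, 2 relative to all genes and 7 at a fold of 1.5. The median log2 ratio of 0.24 was 0.39 in FPKM, 0.70 with DESeq2 size factors, where the added 1 weighs less, 0.056 with no filter and 0.48 relative to all genes. The 64.4% of the sum in Hist1h2ap was 45.4% in expected counts, which take no account of length, and 59.6 to 69.1% with 1 pup left out. The window around the stop codon was not run, as it needs a genome sequence. No paired analysis was possible because there is 1 group of 2 pups. With 2 pups the SD itself is poorly known, and near-identical copies limit what the reads can assign.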
